A study of Mus musculus with 13 samples.

Results

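The SoxB genes (Sox1, Sox2, Sox3, Sox14 and Sox21), the SoxC genes (Sox4, Sox11 and Sox12) and Sox2ot, the long noncoding RNA gene that contains Sox2, were followed through the listed ChIP-Seq peaks of the mouse oligodendrocyte lineage. These 9 genes were chosen by family membership out of 35312 protein-coding and lncRNA genes of GENCODE release M21 (mm10, GRCm38). H3K4me3 and H3K27me3 were measured in neural stem cells (NSC), oligodendrocyte precursor cells (OPC) and newly formed oligodendrocytes (NFO), and OLIG2 binding in OPC and NFO, with 1 library for each of these 8 peak lists. NSC were untreated cultures from the cortex of CD-1 embryos at E14.5, grown with EGF and FGF, although their labels give the strain C57BL/6. OPC (panned on a PDGFRα antibody) and NFO (panned on a GalC antibody) came untreated from C57BL/6 brains at postnatal day 7, so the stages also differ in strain, age and culture, which cannot be told apart from stage. A gene was given a histone peak when the peak lay within 2 kb of any of its transcription start sites (TSS) or in the gene, and an OLIG2 peak when it lay in the gene or up to 5 kb upstream. No group had a replicate, no test between stages was possible, and no value below carries an error.

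Sox proteins bind DNA through an HMG box. The SoxB1 proteins (SOX1, SOX2, SOX3) keep neural progenitors undifferentiated, the SoxB2 proteins (SOX14, SOX21) act largely as repressors that oppose them, and the SoxC proteins act as activators in differentiating neurons and other tissues. H3K4me3 is a histone mark of active or poised promoters, H3K27me3 is laid down by Polycomb repressive complex 2 at silenced developmental genes, and OLIG2 is the bHLH factor that specifies the oligodendrocyte lineage and binds E-boxes, CANNTG.

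The 8 Sox genes are short, from 2057 bp (Sox2) to 8311 bp (Sox11), whereas Sox2ot spans 578350 bp and has 18 annotated start sites. The RefSeq promoter table (GRCm38.p6) matched 7 of the 9 genes, all but Sox3 and Sox2ot. The 250 bases before the RefSeq start held 35 CpG in Sox12, 29 in Sox1, 27 in Sox2, 23 in Sox14, 17 in each of Sox21 and Sox11, and 11 in Sox4, against a median of 6 over 32851 promoters. The promoters of Sox2, Sox14 and Sox4 are shown because their genes carried H3K4me3 alone in every stage, H3K27me3 across the start in every stage, and a shared OLIG2 peak upstream. They are printed along the gene with each CG in capitals, and lie at chr3:34649745-34649994 on the plus strand, chr9:99876171-99876420 on the minus strand and chr13:28953700-28953949 on the minus strand.
Sox2 promoter: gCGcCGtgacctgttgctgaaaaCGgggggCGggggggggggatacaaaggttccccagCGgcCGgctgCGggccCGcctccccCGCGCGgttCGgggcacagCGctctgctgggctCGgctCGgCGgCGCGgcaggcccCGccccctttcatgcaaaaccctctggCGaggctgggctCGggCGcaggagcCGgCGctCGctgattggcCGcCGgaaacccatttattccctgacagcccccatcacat
Sox14 promoter: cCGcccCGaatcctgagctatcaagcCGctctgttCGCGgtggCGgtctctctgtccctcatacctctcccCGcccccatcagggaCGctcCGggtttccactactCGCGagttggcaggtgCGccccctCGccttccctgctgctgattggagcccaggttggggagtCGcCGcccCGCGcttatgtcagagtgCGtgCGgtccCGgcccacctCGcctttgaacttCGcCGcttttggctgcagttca
Sox4 promoter: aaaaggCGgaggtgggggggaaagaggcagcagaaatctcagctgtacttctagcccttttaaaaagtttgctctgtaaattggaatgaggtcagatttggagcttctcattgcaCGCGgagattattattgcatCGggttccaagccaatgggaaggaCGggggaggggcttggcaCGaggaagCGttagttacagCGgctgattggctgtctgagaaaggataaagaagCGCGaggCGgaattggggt
The GC content of these stretches was 72.0% in Sox2, 65.6% in Sox14 and 50.8% in Sox4, with a median of 52.4% over all promoters. Sox4 thus had the lowest GC content of the 7 matched genes and Sox12, with 74.4%, the highest.

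H3K4me3 was listed at 9 of the 9 genes in NSC, 8 in OPC and 8 in NFO, where 52.5%, 47.5% and 36.9% of all genes had such a peak. H3K27me3 was listed at 4, 4 and 3 of the 9 genes, with 28.1%, 21.5% and 11.3% of all genes. Peaks of both marks overlapped at 4 genes in NSC (Sox1, Sox14, Sox2ot and Sox4), 1 in OPC (Sox2ot) and 2 in NFO (Sox1 and Sox14). The shares of all genes were 11.6%, 5.17% and 3.23%. Under the filter of the study's methods (FDR below 0.05, fold enrichment above 3.5) the NSC count was 3, without Sox4. OLIG2 peaks were listed at 2 genes in OPC (Sox2ot and Sox4) and 4 in NFO (Sox2ot, Sox14, Sox4 and Sox11), against 12.8% and 22.5% of all genes. Sox2ot is one of 615 genes of at least 300 kb. Of these, 95.4%, 93.2% and 90.9% had H3K4me3 in NSC, OPC and NFO, and 95.8%, 69.6% and 49.6% had H3K27me3. Overlapping marks were listed at 49.1%, 24.9% and 13.7% of them, and OLIG2 peaks at 68.5% in OPC and 90.2% in NFO. Counting only histone peaks within 2 kb of a TSS, Sox2ot still had each mark in all 3 stages. Without Sox2ot the H3K4me3 counts were 8, 7 and 7 genes, the H3K27me3 counts 3, 3 and 2, and the OLIG2 counts 1 in OPC and 3 in NFO. The counts of overlapping marks were then 3, 0 and 2 in NSC, OPC and NFO.

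**Figure D1:**
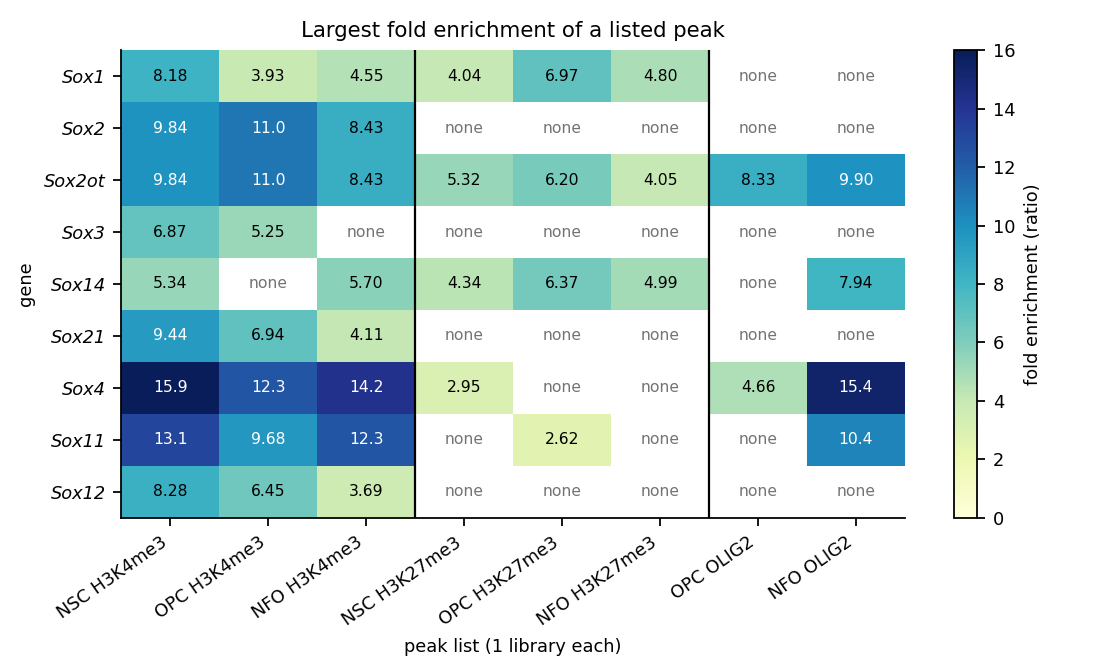
Largest fold enrichment (ratio over control, given by the authors' peak caller) of a listed peak for each gene (rows) in each of the 8 peak lists (columns), "none" where no peak was listed. Sox4 and Sox11 had the highest H3K4me3 values in NSC, 15.9 and 13.1, and H3K27me3 was listed in all 3 stages only at Sox1, Sox14 and Sox2ot.

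The lists differ in ways that touch every comparison across stages. They hold 33292, 18284 and 21736 H3K4me3 peaks in NSC, OPC and NFO, 36069, 29417 and 12688 H3K27me3 peaks, and 7384 and 16911 OLIG2 peaks in OPC and NFO. The median width of all H3K4me3 peaks was 553 bp in NSC, 987 bp in OPC and 255.5 bp in NFO. Of them, 48.8%, 26.8% and 67.8% were under 500 bp, so narrow NFO peaks were common in the whole list. By their peak names, the NSC libraries were read from a single end and the other histone libraries from both ends, so widths are not on the same scale, and read depth is unknown. The antibody field of the histone samples names the other mark than their titles, and the titles were followed. All 8 housekeeping genes checked had H3K4me3 in every stage, and 1, 1 and 0 had H3K27me3 in NSC, OPC and NFO. All 39 Hox genes had H3K27me3 in every stage, but 33, 24 and 28 of them had H3K4me3 as well. Of 8 NFO markers, 4, 4 and 1 had H3K4me3 in NSC, OPC and NFO, and in the NFO list Mbp, Mog and Mag had none. Of 8 OPC markers, 7, 8 and 8 had the mark, and of 8 NSC markers 8, 8 and 5. The markers of neurons had H3K4me3 at 5, 5 and 4 of 6 genes, and those of microglia at 1, 2 and 1 of 6. Astrocyte markers had it at 4, 2 and 1 of 6, and endothelial markers at 3, 2 and 2 of 6. H3K27me3 was listed at 3, 5 and 5 of the neuron markers and 2, 2 and 1 of the microglia markers. For astrocyte markers these counts were 2, 2 and 3, and for endothelial markers 3, 5 and 3.

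Among the SoxB1 genes, Sox2, a core factor of neural stem cells, carried H3K4me3 in all stages and no listed H3K27me3 in any. Its H3K4me3 peak was 19212 bp wide in NSC (fold enrichment 9.84) and 8685 bp in OPC (11.0). In NFO it was split into 3 peaks of 249, 333 and 4191 bp with fold enrichments of 7.05, 7.73 and 8.43. The window of 2 kb on each side of the start was covered in full in NSC, to 97.5% in OPC and to 48.9% in NFO. No OLIG2 peak met the rule at Sox2. The nearest lay downstream of its TSS within Sox2ot, at 9.22 kb in NFO (9.30) and 12.3 kb in OPC (3.83). Both lay under the wide NSC H3K4me3 peak of Sox2.

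Sox1, a SoxB1 gene of the early neural plate, had opposite changes of the marks in the lists. Its H3K4me3 peak was 7910 bp wide in NSC with a fold enrichment of 8.18. Only peaks of 357 and 402 bp (3.87 and 3.93) were listed in OPC, and only a peak of 183 bp (4.55) in NFO. H3K27me3 was a peak of 279 bp in NSC (4.04), peaks of 8228 and 2618 bp in OPC (6.97 and 6.56) and peaks of 2522 and 7190 bp in NFO (4.29 and 4.80). In the start window, cover by H3K4me3 was 81.0%, 15.5% and 4.57% in NSC, OPC and NFO, and cover by H3K27me3 was 6.97%, 39.1% and 38.9%.

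The wide H3K27me3 peaks of Sox1 flanked the start rather than lying on it. A stretch of 3192 bp in OPC and 2910 bp in NFO, starting 434 and 445 bp before the TSS, had no listed H3K27me3. Its GC content was 67.0% in OPC and 69.1% in NFO, against 47.2% and 46.7% in the flanking peaks. Both small H3K4me3 peaks of OPC lay in this stretch. The narrow NSC H3K27me3 peak and the narrow NFO H3K4me3 peak both adjoined or held a run of 11 T at chr8:12394354-12394364, and the overlap of the marks at Sox1 rested on the narrow peak in each of these stages. Sox1 lies inside another annotated lncRNA gene, and these peaks cannot be assigned to either gene alone.

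Sox3, the X-linked SoxB1 gene (chrX:60891366-60893430), had an H3K4me3 peak of 5494 bp in NSC (fold enrichment 6.87) and 3280 bp in OPC (5.25). None was listed in NFO, and cover of the start window was complete in NSC, 82.0% in OPC and 0 in NFO. Sox3 was the only gene of the 9 without any listed peak in NFO, and no stage listed H3K27me3 there. The nearest NFO OLIG2 peak lay 42.5 kb upstream.

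Of the SoxB2 genes, Sox14, which marks subsets of interneurons in the brain and spinal cord, was covered by H3K27me3 in every stage. The peaks over the gene (chr9:99874106-99876170) were 15736 bp in NSC, 8682 bp in OPC and 13207 bp in NFO, with fold enrichments of 4.34, 6.37 and 4.99. They covered the start windows in full in all 3 stages, a cover that at least 99.3% of all genes did not reach in each list. H3K4me3 at Sox14 was small by comparison, with peaks of 849 and 162 bp in NSC (5.34 and 3.94), none in OPC and 252 bp in NFO (5.70). None of these H3K4me3 peaks covered the first TSS.

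Sox21, the other SoxB2 gene, had the opposite profile, with H3K4me3 in all stages and no listed H3K27me3. The H3K4me3 peak was 7761 bp in NSC (9.44) and 4723 bp in OPC (6.94), with peaks of 1239 and 1853 bp in NFO (4.11 and 3.60). Start window cover was 88.1%, 76.0% and 46.3%. The nearest OLIG2 peaks lay 193 kb (NFO) and 209.7 kb (OPC) from its TSS.

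Among the SoxC genes, Sox4 and Sox11, which act in neuronal differentiation, had the highest H3K4me3 fold enrichments of the set in NSC and NFO, and in OPC Sox2 lay between them. At Sox4 the largest values were 15.9 in NSC, 12.3 in OPC and 14.2 in NFO, on peaks of 6252, 5579 and 2749 bp. At Sox11 they were 13.1, 9.68 and 12.4, on peaks of 8623, 6775 and 2713 bp. At both genes the NFO value lay between those of NSC and OPC. It belonged to a peak within the NSC and OPC domains that did not reach the TSS. The NSC and OPC peaks lay over the TSS. The NFO peak began 2079 bp past the TSS at Sox4 and 1326 bp past it at Sox11, mostly in exon outside the coding sequence. Cover of the start window was 81.1%, 67.9% and 5.52% at Sox4 and 90.0%, 84.3% and 16.9% at Sox11.

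Sox12, the third SoxC gene, had H3K4me3 peaks of 4408 bp in NSC (8.28) and 3903 bp in OPC (6.45), and peaks of 366 and 244 bp in NFO (3.62 and 3.69). No H3K27me3 was listed at Sox12. At Sox4 the only H3K27me3 peak was 1042 bp in NSC with a fold enrichment of 2.95, and at Sox11 it was 604 bp in OPC with 2.62. Both lie below the fold enrichment of 3.5 that the study's methods require of histone peaks.

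**Figure D2:**
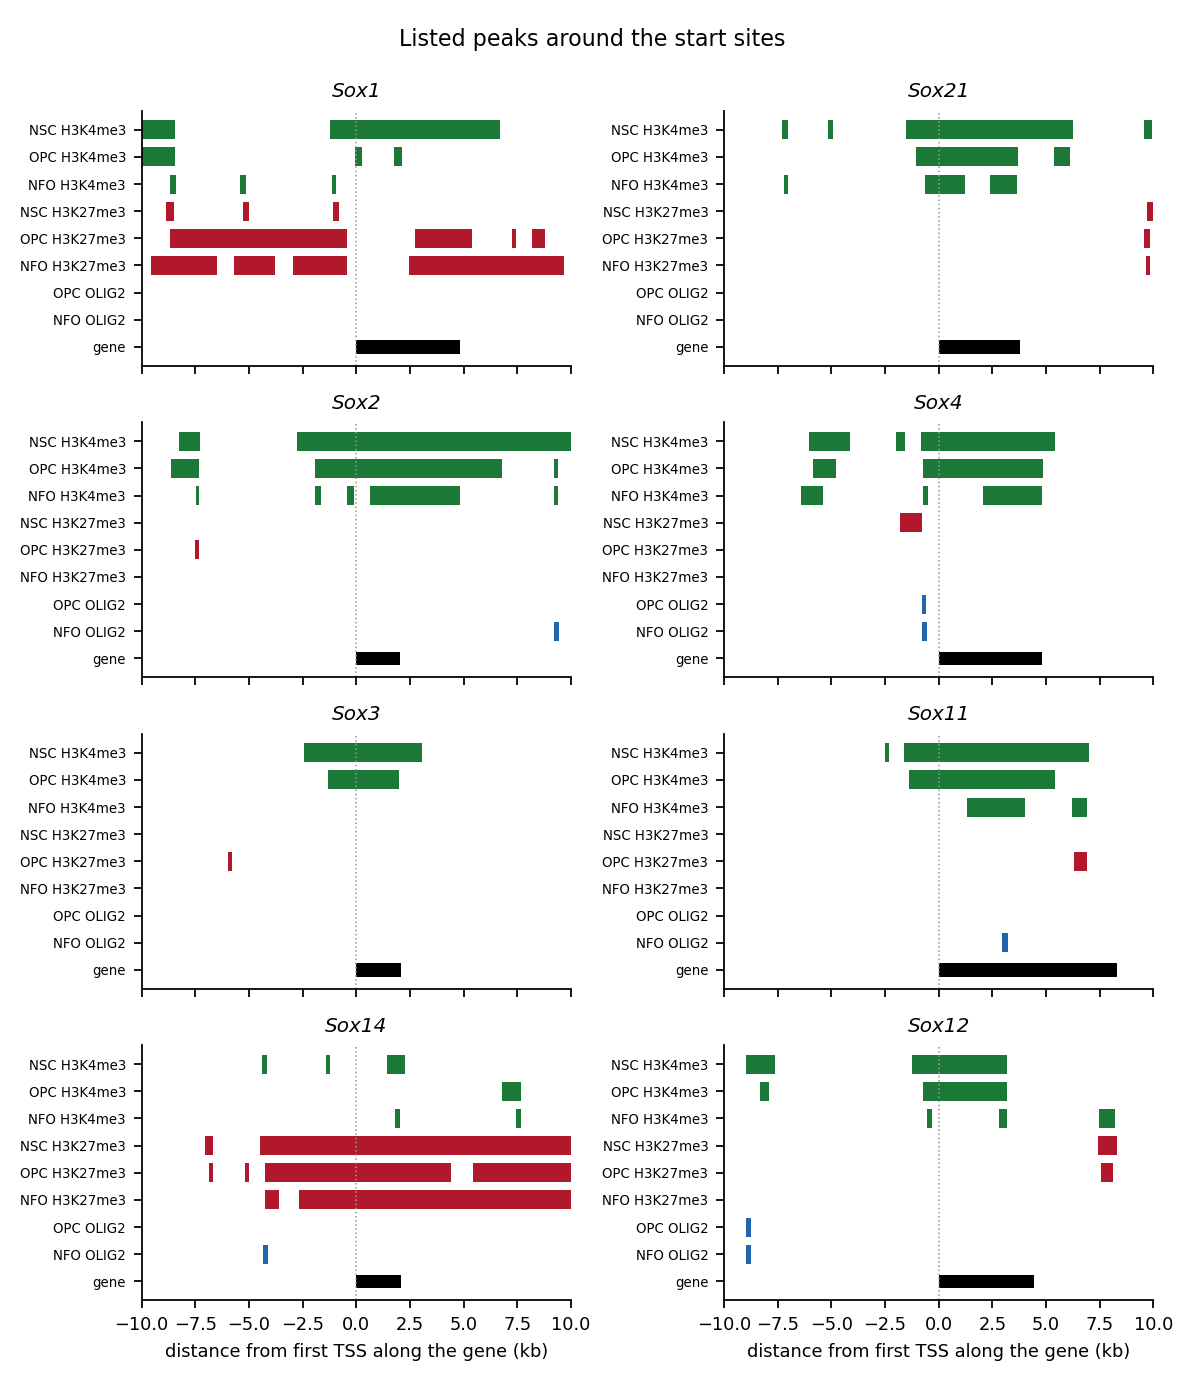
Listed peaks (bars) within 10 kb of the first TSS of the 8 Sox genes, drawn along the direction of transcription (distance in kb), with H3K4me3 in green, H3K27me3 in red, OLIG2 in blue and the gene in black. The NSC and OPC H3K4me3 bars lie across the dotted TSS line in 7 panels each, the NFO bars only at Sox21, and H3K27me3 crosses it only at Sox14.

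The start itself separated NFO from the other stages. A listed H3K4me3 peak lay over the first TSS of 7 of the 8 Sox genes in NSC, 7 in OPC and 1 (Sox21) in NFO. Over all genes the shares were 39.6%, 32.0% and 9.23%, so NFO was lower for genes in general as well. At the 5 Sox genes whose OPC and NFO H3K4me3 peaks shared bases, the NFO peaks lay on the less GC-rich part of the OPC domain. Within the OPC H3K4me3 peak of Sox4, bases also under an NFO peak had a GC content of 40.2% and the others 62.2%. The corresponding values were 46.7% and 55.4% at Sox11, 43.6% and 55.2% at Sox2, 54.0% and 61.9% at Sox21, and 48.0% and 65.9% at Sox12. Set against the NSC domains, the bases under NFO peaks were again less GC-rich at 6 of 7 Sox genes, and at Sox21 they were more so, with 54.0% under the NFO peaks and 50.5% elsewhere.

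Across the lists the pattern differed between pairs of stages. In OPC H3K4me3 peaks of at least 500 bp that met an NFO peak, 52.7% of the 100 bp tiles with a GC content below 40% lay under the NFO peak, and 29.1% of those at 70% or more. Between NSC and OPC the order was the other way, with 43.8% of the tiles below 40% and 88.3% of those at 70% or more under the OPC peak. Between NSC and NFO the shares differed little, from 26.4% to 34.6% over the 5 classes of GC content. These tiles cover whole peaks and not the start sites alone, and the part of GC content in the differences between stages was not tested.

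**Figure D3:**
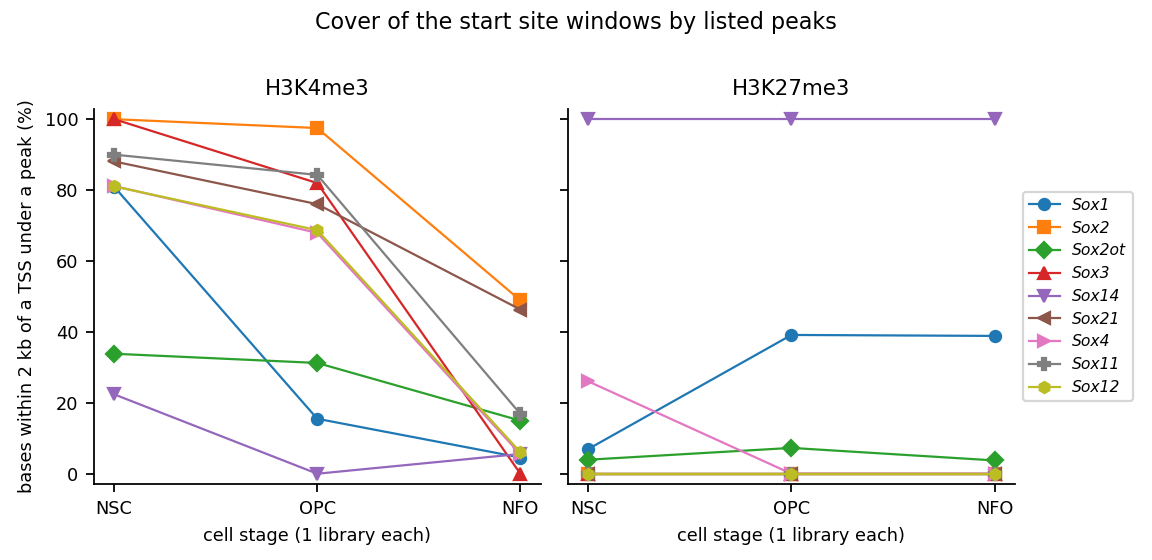
Share of the bases within 2 kb of a TSS that lie under a listed H3K4me3 peak (left) or H3K27me3 peak (right), in percent, for each gene (coloured lines) by cell stage, with 1 library per point. H3K4me3 cover was lower in NFO than in OPC for 8 of the 9 genes, all but Sox14. The share of all genes with lower cover was not computed, and the median H3K4me3 peak was 987 bp in OPC and 255.5 bp in NFO. H3K27me3 cover was complete at Sox14 throughout and higher in OPC and NFO than in NSC at Sox1.

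Sox2ot, whose transcripts overlap Sox2 in the same direction (chr3:34104270-34682619), held 7, 9 and 11 H3K4me3 peaks in NSC, OPC and NFO and 9, 4 and 1 H3K27me3 peaks. Of these, 5, 7 and 8 H3K4me3 peaks and 5, 2 and 1 H3K27me3 peaks passed the methods' filter. Because Sox2 lies within it, the wide Sox2 domain counts for both genes, in NFO as 3 peaks. Its start sites differed in the peaks listed at them. At the start sites 92.5 to 92.6 kb after the first, H3K4me3 was listed in OPC (2992 bp, fold enrichment 5.80) and NFO (511 and 647 bp, 4.29 and 3.47), with none in NSC. At those near 456 kb it was listed in NSC (3472 bp, 8.14) and NFO (914 bp, 3.01), with none in OPC, and NSC H3K27me3 (1185 bp, 3.68) lay on the same bases. The NFO peaks of 647 and 914 bp lie below the methods' fold enrichment of 3.5.

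Within 2 kb of its first start sites Sox2ot had H3K27me3 in OPC and NFO and no H3K4me3 in any stage. The H3K27me3 peaks were 1951 and 1620 bp in OPC (3.14 and 6.20) and 1816 bp in NFO (4.05). The OPC peak of 1951 bp, which lay over the first TSS, passed neither the FDR nor the fold enrichment of the methods' filter. The nearest in NSC was a peak of 292 bp (5.32) that lay 2367 bp from the closest TSS and held a run of 20 A. The overlap of the marks counted for Sox2ot in OPC rested on an H3K27me3 peak of 192 bp with a fold enrichment of 2.99, which ended on the same base as the OPC and NFO H3K4me3 peaks there, chr3:34643090. A run of 26 T begins on the next base. Such shared ends at runs of A or T were common at these genes, as described below.

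**Figure D4:**
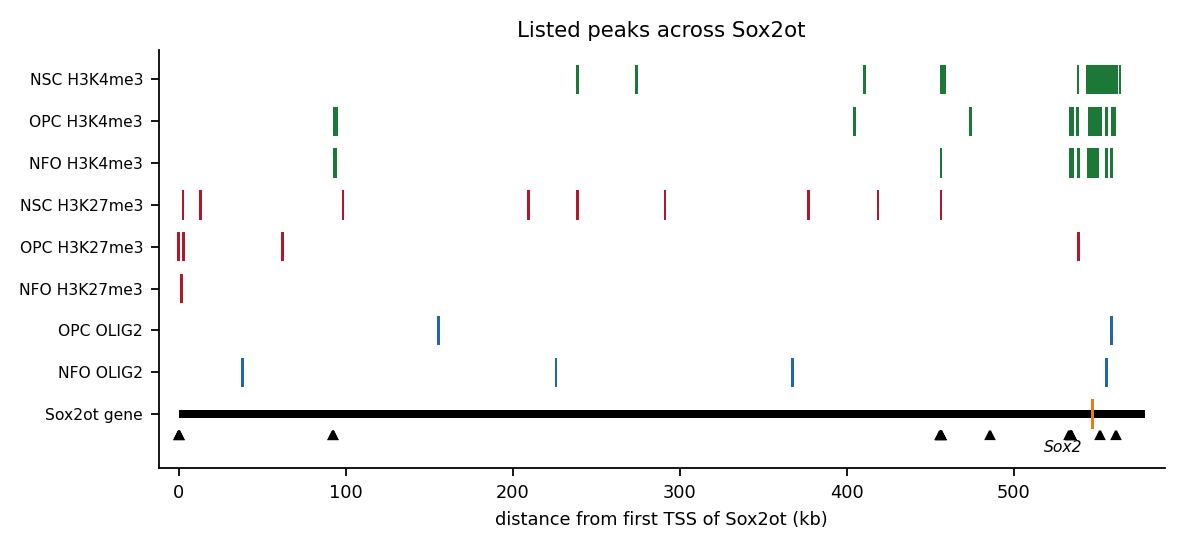
Listed peaks across Sox2ot against the distance from its first TSS (kb), with H3K4me3 in green, H3K27me3 in red, OLIG2 in blue, annotated start sites as triangles and Sox2 in orange. Short peaks are widened to a minimum so that they can be seen. H3K27me3 lies within 2 kb of the first start sites in OPC and NFO, with a narrow NSC peak just beyond, and the widest H3K4me3 peaks surround Sox2.

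OLIG2 peaks at the set numbered 3 in OPC and 7 in NFO, at 9 distinct sites. The sequences of 4 of them are given, among them the 2 sites with an E-box and a site without a run, so they are not a typical sample. They run along the plus strand of mm10, and capitals mark E-boxes and runs of at least 12 A or T. They lie at chr13:28954278-28954513 (Sox4, NFO), chr9:99880267-99880502 (Sox14, NFO), chr3:34259784-34260013 (Sox2ot, OPC) and chr3:34662656-34662885 (Sox2ot, OPC).
Sox4 upstream site: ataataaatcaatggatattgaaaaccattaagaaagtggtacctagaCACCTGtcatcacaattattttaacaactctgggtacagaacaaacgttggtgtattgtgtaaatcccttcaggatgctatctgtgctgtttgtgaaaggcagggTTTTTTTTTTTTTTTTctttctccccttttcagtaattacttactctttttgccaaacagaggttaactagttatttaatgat
Sox14 upstream site: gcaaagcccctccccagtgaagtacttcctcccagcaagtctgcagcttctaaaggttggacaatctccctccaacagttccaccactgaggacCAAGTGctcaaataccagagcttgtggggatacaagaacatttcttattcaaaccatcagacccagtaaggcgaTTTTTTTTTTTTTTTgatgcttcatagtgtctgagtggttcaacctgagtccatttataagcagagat
Sox2ot intronic site upstream of Sox2: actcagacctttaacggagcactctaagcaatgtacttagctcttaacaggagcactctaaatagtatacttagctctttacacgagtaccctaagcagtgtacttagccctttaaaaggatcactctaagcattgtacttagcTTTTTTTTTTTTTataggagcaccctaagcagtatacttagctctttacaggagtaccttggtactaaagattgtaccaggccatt
Sox2ot intronic site without a run: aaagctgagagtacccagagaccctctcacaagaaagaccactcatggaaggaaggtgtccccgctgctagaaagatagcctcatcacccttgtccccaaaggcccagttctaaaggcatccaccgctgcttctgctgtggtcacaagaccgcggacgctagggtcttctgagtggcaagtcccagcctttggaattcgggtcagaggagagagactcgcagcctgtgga
The E-box was CACCTG at Sox4 and CAAGTG at Sox14, as read on the plus strand. The Sox2ot sequences hold no E-box, and the first 3 sequences hold a run.

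Sox4 had the only OLIG2 peak shared by both stages, 1 of 3 in OPC and 1 of 7 in NFO, where 14.3% of all OPC peaks overlapped an NFO peak and 6.26% of all NFO peaks an OPC peak. It lay 568 bp upstream of the TSS in OPC with a fold enrichment of 4.66 and 565 bp upstream in NFO with 15.4. The OPC value is below the fold enrichment of 5 that the methods require, and 92.5% of NFO peaks had a lower value than the NFO peak. The site overlapped H3K4me3 peaks of NSC, OPC and NFO and the NSC H3K27me3 peak. Over all peaks, 12.6% of OPC and 8.23% of NFO OLIG2 peaks overlapped H3K4me3 of their own stage.

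The NFO peak of Sox11 (chr12:27339367-27339602, fold enrichment 10.4) lay wholly in the exon outside the coding sequence, under H3K4me3 of all stages, and the nearest OPC peak lay 327 kb away. The NFO peak of Sox14 (7.94) lay 4.10 kb upstream, where peaks of H3K27me3 were listed in all 3 stages and a narrow H3K4me3 peak in NSC. At Sox2ot, OPC peaks had fold enrichments of 8.33 and 3.83, the latter below the methods' filter of 5, and the 4 NFO peaks from 2.56 to 9.90, all in introns. The OPC site with 3.83 and the NFO site with 9.30 overlapped H3K4me3 peaks of NSC, OPC and NFO. The other Sox2ot sites overlapped no listed histone peak. The site with 9.90 was soft-masked as a repeat over its whole length, and the site with 2.56 did not pass an FDR of 0.05. Just outside the rule, Sox12 had an OLIG2 peak 8.74 kb upstream in OPC (8.04) and 8.75 kb upstream in NFO (8.53).

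E-boxes were found at 2 of the 9 sites, whereas 70.4% of all OPC and 69.3% of all NFO OLIG2 peaks held CANNTG on either strand. The Sox motif ACAATG was found at the Sox2ot site of OPC with a fold enrichment of 8.33, and ACAAAG at the fully soft-masked Sox2ot site. In all OPC peaks these motifs occurred in 11.3% and 19.5%, and in all NFO peaks in 12.1% and 20.5%.

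Runs of at least 12 A or T were found at 7 of the 9 OLIG2 sites. The run was 16 T at Sox4, 15 T at Sox14, 17 A at Sox11 and 13 to 17 bases at 4 Sox2ot sites. Across the lists, 70.0% of OPC and 68.7% of NFO OLIG2 peaks held or adjoined such a run, against 3.90% and 3.99% of regions of the same width 2 kb to the right. Without the peaks that have a run, 1 gene in OPC and 1 in NFO had an OLIG2 peak, in each case Sox2ot (fold enrichments 3.83 and 2.56), and none was left at Sox4, Sox14 or Sox11.

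The same runs lay at the narrow histone peaks. Of the 30 histone peaks under 500 bp at the 9 genes, 20 held or adjoined a run. The NFO H3K4me3 peak upstream of Sox4 (chr13:28954210-28954430) and the OPC H3K4me3 domain of Sox4 both ended on the base before the run of 16 T inside the OLIG2 peak. The OPC H3K4me3 domain of Sox2 and the NFO peak of 249 bp both began at chr3:34648505, on the base after a run of 16 A. Of the 31 OPC and NFO histone peaks of at least 500 bp at these genes, 10 had a run at an end, and of the 16 in NSC 0. Over all peaks of this width the shares were 16.1% to 32.4% in the 4 OPC and NFO lists, and 0.400% and 0.808% in the NSC lists.

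In the lists as a whole the place of the run differed between NSC and the other histone libraries. Of the narrow NSC peaks, 73.6% (H3K4me3) and 88.3% (H3K27me3) held a run inside, and 0.525% and 0.0602% had it at an end. In OPC and NFO, the libraries read from both ends, the run lay at an end, in 35.2% (OPC) and 57.2% (NFO) of narrow H3K4me3 peaks and 59.3% and 25.2% of narrow H3K27me3 peaks. Regions 2 kb to the right held or adjoined a run in 3.07% to 4.67% of cases in the 6 histone lists. The part of these runs in the calls of narrow peaks and OLIG2 peaks was not tested. Leaving out the narrow peaks with a run changed none of the 6 counts of genes with a listed histone mark, and took the count of genes with overlapping marks in OPC from 1 to 0. The run of 11 T at Sox1 is just too short to be counted there.

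**Figure D5:**
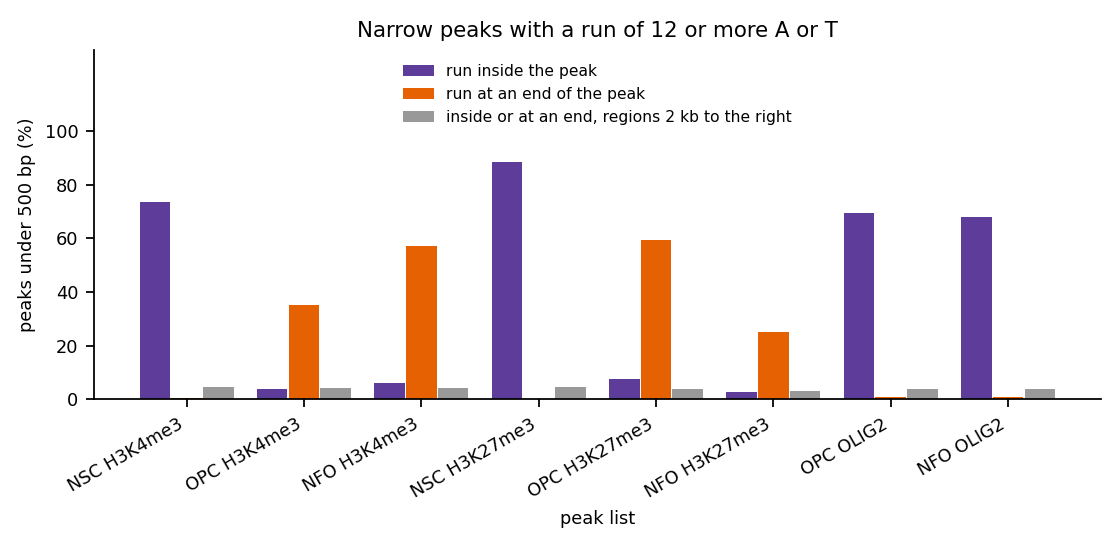
Share of peaks under 500 bp (percent) with a run of at least 12 A or T inside the peak (purple) or at an end of it (orange) in each list, and with a run in either place in regions of the same width 2 kb to the right (grey). The OLIG2 and NSC lists have the run inside in 67.9% to 88.3% of peaks, the OPC and NFO histone lists at an end, and the grey bars stay between 3.07% and 4.67%.

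Of the other 12 Sox genes, 10, 9 and 6 had H3K4me3 in NSC, OPC and NFO and 6, 6 and 4 had H3K27me3. Sox10, which drives oligodendrocyte differentiation, had largest H3K4me3 fold enrichments of 3.60, 8.88 and 19.2, and H3K27me3 in NSC alone (5.61). Sox17, Sox18 and Sox7, genes of endothelium and endoderm, had H3K4me3 in NSC and OPC and none in NFO, as had Sox3, but carried H3K27me3 in OPC and NFO. In NSC, H3K27me3 was listed at Sox17 (3.94) and Sox7 (3.03) and not at Sox18. Sox30 had H3K4me3 in NSC alone, Sox5 had H3K27me3 in NSC and OPC, Sox6 in NSC and Sox9 in OPC. The 4 class III POU genes, whose proteins partner SoxB factors, had H3K4me3 in every stage, and H3K27me3 was listed at Pou3f1 in all stages and at Pou3f3 in OPC. OLIG2 peaks were listed at 4 (OPC) and 5 (NFO) of the other Sox genes and at none of the POU genes. Of all genes, 12.8% (OPC) and 22.5% (NFO) had such a peak, and gene length was not taken into account here.

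By Euclidean distance over the largest fold enrichments in the 6 histone lists, the genes nearest to Sox1 were Gm47040 (1.14), Gm13067 (1.47) and Hoxa7 (1.58), and those nearest to Sox14 were Hoxaas2 (0.900), 1700039I01Rik (1.12) and Tbr1 (1.20). Nearest to Sox2 were Etv1 (0.592), Gm47580 and Gopc (0.926 each), and to Sox2ot Kank4 (1.61), Hccs (1.68) and Nhsl1 (1.72). For Sox3 and Sox21 the nearest genes were the lncRNA genes Gm14662 and Gm4675, at a distance of 0 because they share the same peaks. The next were Nudt22 and Trpt1 (0.016 each) for Sox3, and Gars (0.134) and Mcm5 (0.172) for Sox21. For the SoxC genes they were Mthfs (1.68), Cdv3 (1.92) and 1810026B05Rik (1.99) for Sox4, Inafm2 (0.704), Sept4 (1.26) and Gm19265 (1.43) for Sox11, and Spg20 (0.137), Mrpl42 (0.147) and Gm4419 (0.164) for Sox12. The distances rest on 6 libraries and describe these lists only.

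RIP-Seq lists RNA sites recovered with an OLIG2 antibody or IgG. In the exons of the 9 genes it listed no site, 0 of 101310 OLIG2 sites and 0 of 83195 IgG sites. The count covers exons only. The share of all genes with a site was not computed, so this absence is no result about these genes. The OLIG2 sites fell in 1961 transcripts and the smallest listed site had 4 tags, so transcripts with fewer tags, or not among those called, cannot be judged. The IgG library is titled as the input of this assay, and its antibody field names IgG. The labels give the cells as NFO and the study's methods as NSC.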

How the data were processed

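H3K4me3 and H3K27me3 ChIP-Seq of NSC, OPC and NFO, OLIG2 ChIP-Seq of OPC and NFO, and OLIG2 and IgG RIP-Seq were used, 1 library each, without the input DNA libraries. Groups follow the sample titles. Per the study's methods, the authors aligned reads to mm10 (Bowtie2, unique alignments only), called histone peaks with MACS2 and OLIG2 peaks with SPP, and removed blacklisted regions. Versions are not given in the sources used here. The deposited lists give each peak's fold enrichment, a ratio from the authors' peak caller, and the −log10 of its FDR, with the −log10 p for histone marks. For RIP-Seq, the deposited ASPeak lists give tag counts per site without normalization, a p-value and the transcript's RPKM, and only the site positions and the smallest tag count were used here. Depth is unknown, so no interval was given.

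All listed peaks were used. The methods' filter (FDR below 0.05, fold enrichment above 3.5 for histone marks and above 5 for OLIG2) was an alternative. Peaks were assigned to GENCODE M21 genes as stated in the report, and the assignment was tested on simulated peaks. Cover is the share of bases within 2 kb of the start sites under a peak. Sequences came from GRCm38, and peak ends lay within its chromosomes. Sequences are given for 4 of the 9 OLIG2 sites, and the others are not reported here. A run was counted if it overlapped the peak or lay within 2 bases of it. With 1 library per group there was no test, and counts are set beside the share of all genes. Other alternatives were stricter fold enrichments (5 and 10), other distances and larger overlaps. Peaks of at least 500 bp, the first TSS alone, leaving out Sox2ot and leaving out peaks with a run were chosen after seeing the data. All 9 members were named, with other Sox and class III POU genes where a mark was listed in only some stages, and the 3 genes nearest in fold enrichment to each member. The members and lists were chosen with earlier results of these data known. Python 3.11.15, NumPy 2.4.6, pandas 2.3.3, pysam 0.24.0 and Matplotlib 3.10.9 were used.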

Additional observations from a re-analysis of the deposited data

How the results depend on the processing

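Of 88 recomputed counts, 64 were the same or within 1.5 times the reported count. Under the methods' filter, overlapping marks in OPC went from 1 gene to 0, OLIG2 genes in OPC from 2 to 1, and the shared OLIG2 peak from 1 to 0, since the OPC value at Sox4 is below that filter. Under the stricter fold enrichment, H3K4me3 in NFO stood at 5 genes, H3K27me3 at 1 in NSC and 0 in NFO, overlapping marks at 0 in NSC, OPC and NFO, and OLIG2 at 0 in OPC and 2 (Sox4 and Sox11) in NFO. Overlapping marks in OPC were 0 within 2 kb of any TSS or of the first TSS, without Sox2ot, without peaks that have a run, and with an overlap of at least 200 bp, which left 1 gene (Sox14) in NFO. With peaks of at least 500 bp, H3K4me3 in NFO stood at 5 genes and overlapping marks at 0 in OPC and 0 in NFO. Without Sox2ot, OLIG2 in OPC stood at 1 gene (Sox4), and without peaks that have a run at 1 (Sox2ot) in OPC and 1 (Sox2ot) in NFO, with 0 shared peaks. The count of RIP-Seq sites had no alternative. No paired analysis was possible because each group has 1 library and no count comes from a test. No group had the replicates needed to leave any out. Unknown depth limits every absence of a peak, which is an absence from the list only.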
